A study of Homo sapiens with 24 samples.

Results

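The human ZNF genes encode zinc finger proteins, most of them DNA-binding regulators that are present at low levels in the nucleus. Here they were taken as the genes of the count table whose symbol is ZNF followed by a number and at most 1 letter and that had 30 or more counts in each of the 4 DMSO total RNA libraries. Of 566 such symbols in the table, 156 met this rule and are called members below, out of 54583 genes in all. Another 61 of the 566 had no count in any library. The 4 members nearest the limit were ZNF250, ZNF347, ZNF551 and ZNF766, each with 30 counts in its lowest DMSO total library, and ZNF160, ZNF654, ZNF680 and ZNF75A fell just outside with 29.

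PANC-1, the line used, is an established human cell line derived from a pancreatic ductal tumour. Plates were treated for 6 h with DMSO, the solvent control, with 40 µM CID661578, a compound that binds the kinase MNK2, or with 5 µM cercosporamide, an inhibitor of the MNK kinases. Each treatment had 4 biological replicates, for 24 libraries. Per the study's methods, each lysate gave total cytosolic RNA and polysome-associated RNA, which is RNA bound by more than 3 ribosomes. The 2 libraries of 1 treatment and replicate number are taken as 1 plate below, 12 in all, although the labels name no plates. No group carried a genetic change, all groups came from 1 cell line, and the 2 compounds were used at 1 dose each.

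The libraries held 9268041 to 12184749 reads on genes, except for the polysome library of cercosporamide replicate 4, which held 1592459. In that library 52 members had fewer than 10 counts and the median member had 14. The duct keratins KRT8, KRT18 and KRT19 stood at 5199, 3374 and 1474 CPM, the counts scaled to equal library totals, in DMSO total RNA, and the duct markers KRT7, SOX9 and EPCAM at 19.5, 14.3 and 8.32. Of the mesenchymal markers, VIM stood at 1059 CPM, CDH2 at 8.57 and FN1 at 0.0509. Among markers of other cell types, CD68 of leukocytes was at 543 CPM and COL1A1 of fibroblasts at 2.49, and the rest of the list reached at most 0.644 in any library, with PTPRC, CD3E, PRSS1, AMY2A, INS and DCN at 0 in all of them. Tests were run on the 12058 genes that had at least 1 count in all 24 libraries, among them 151 of the members. ZNF707, ZNF449, ZNF254, ZNF771 and ZNF250 were lost in this way, all of them through a 0 in the shallow library.

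A C2H2 zinc finger is a short loop that is held by a zinc ion between a pair of cysteines and a pair of histidines, and each finger reads a few bases of DNA. The fingers stand in rows, joined by a conserved linker of the residues TGEKP. Many ZNF proteins also carry a KRAB box near their start, which recruits TRIM28 and, through it, the histone methyltransferase SETDB1 and HP1 proteins to silence chromatin, mostly at retroelements. KRAB genes multiplied in mammals and lie in clusters, above all on chromosome 19. Both compounds act on the MNK kinases, which phosphorylate the cap-binding factor eIF4E, so the ratio of polysome-associated to total RNA was the readout of interest.

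The repeated structure is shown by the coding sequence of 1 finger with its linker from 3 members, ZNF600 and ZNF184, whose polysome-associated share changed most upward, and ZNF544, a KRAB member that moved down. Sequences are from GENCODE v44 on GRCh38 and run 5′ to 3′ along the coding strand, and the capitals mark the bases that encode the linker.
ZNF600: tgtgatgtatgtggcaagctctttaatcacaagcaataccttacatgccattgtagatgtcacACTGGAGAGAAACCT
ZNF184: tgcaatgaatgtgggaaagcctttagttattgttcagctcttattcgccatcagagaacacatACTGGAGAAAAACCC
ZNF544: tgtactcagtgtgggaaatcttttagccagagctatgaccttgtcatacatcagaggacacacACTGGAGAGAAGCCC
They lie in coding exons at chr19:52767105-52767182 on the minus strand, chr6:27452812-27452889 on the minus strand and chr19:58261750-58261827 on the plus strand. Of their 78 bases, 48 were identical between ZNF600 and ZNF184, 45 between ZNF600 and ZNF544, and 54 between ZNF184 and ZNF544.

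Of the 153 members with an annotated protein, 105 held at least 1 such linker after a histidine, and ZNF845 held the most with 17. A search for the pattern of cysteines and histidines with 12 residues between the pairs found fingers in 150 of them, with a median of 10 and a highest number of 33 in ZNF462. A KRAB box was found in 88 and not in 65, and the other 3 members, ZNF702P, ZNF788P and ZNF271P, are pseudogenes. Members with a KRAB box had a median of 12 fingers, against 6 without one. In all, 66 members lie on chromosome 19. The repeats leave part of the sequence ambiguous for 50-base reads: 12 members shared more than 10% of their 50-base stretches with the transcripts of other genes, led by ZNF799 with 34.5% and including ZNF600 with 16%, while 70 shared none. In addition, 12 members had more than 30% of their exon bases inside exons of another annotated gene, among them ZNF593 with 100% and ZNF511 with 63.7%, and reads from the overlap cannot be assigned to a strand in these libraries.

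As a class the members were scarce. They took up 0.252 ± 0.0168% of the reads of the DMSO total libraries and 0.239 ± 0.00812% of the DMSO polysome libraries (mean ± SD, n = 4 each). With CID661578 the shares were 0.245 ± 0.0245% and 0.244 ± 0.0284%, and with cercosporamide 0.238 ± 0.0158% and 0.253 ± 0.0243%, and the ranges of the CID661578 and cercosporamide libraries overlapped those of DMSO in each fraction. Scaled to transcript length, the median member stood at 2.26 CPM per kb in DMSO total RNA, against 4.80 over all tested genes, and 30 of the 151 tested members lay above that value.

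The 3 highest members per length were not KRAB proteins. ZNF593, a small protein related to a yeast factor of large ribosomal subunit assembly, stood at 548 ± 116 CPM per kb, ZNF511 at 60.3 ± 29.1, and ZNF622, which takes part in maturation of the large ribosomal subunit, at 49.6. The first was the only member among the top 10% of all tested genes. Replicates scattered widely at this abundance: the median coefficient of variation of a member over the 4 DMSO total libraries was 24.5%, where counting alone would give 10.1%, and other genes with at least 30 counts on average gave 25.3%.

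**Figure D1:**
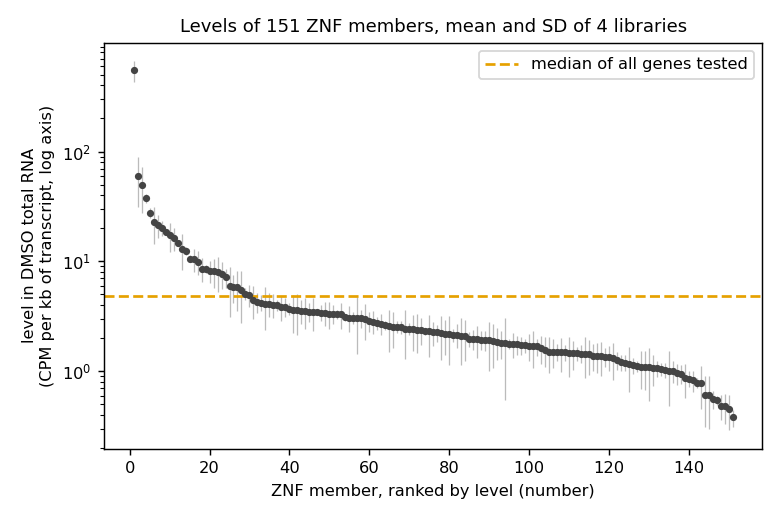
Level of the 151 tested members in DMSO total RNA in CPM per kb of transcript on a log axis, ranked from high to low, with points for the mean and bars for the SD of 4 libraries. The dashed line is the median of all genes tested, 4.80 CPM per kb, and 30 members lie above it, with ZNF593 at 548 apart from the rest.

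The first comparison asked how far the members were associated with polysomes in untreated cells, with the ratio of polysome to total RNA taken relative to the average gene. In DMSO the members leaned to the total fraction, with a median log2 ratio of -0.23 against -0.01 over all genes tested. At an adjusted p below 0.15 and a ratio beyond 1.2-fold (edgeR's quasi-likelihood test, Benjamini-Hochberg over all genes), 28 of 151 members were higher in polysomes and 55 lower, which is 18.5% and 36.4%, while 26.4% of all genes were called higher and 29.6% lower. The members had been chosen for their counts in the DMSO total libraries, which are the denominator of this ratio. With ZNF genes chosen instead by a mean of 30 or more counts over all 24 libraries, 224 were tested, 49 were called higher and 64 lower, 21.9% and 28.6%, and their median was -0.06. Over all genes with 30 or more counts in each DMSO total library, 26.4% were called higher and 34.6% lower, with a median of -0.08. With each library's trend on transcript GC content removed, 37 of 151 members were higher and 45 lower, 24.5% and 29.8%. Of all genes 29.4% and 29% were, and the medians were -0.08 for members and 0.03 for all genes. With edgeR's own filter, 35 of 156 members were higher and 44 lower, 22.4% and 28.2%, against 26.7% and 26.2% of all genes.

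Of the 6 members highest on polysomes, 4 had no KRAB box. ZNF335, a subunit of a histone H3K4 methyltransferase complex, had polysome over total ratios of 2.08, 3.51, 2.50 and 3.31 in DMSO replicates 1 to 4, and a log2 ratio of 1.47 (SE 0.29, adjusted p = 0.000243). ZNF106, an RNA-binding protein, had ratios of 2.57, 2.42, 1.75 and 3.83 and a log2 ratio of 1.35 (SE 0.20, adjusted p = 7.75e-06). ZNF24, a SCAN domain transcription factor, followed with 2.80, 1.99, 2.55 and 1.71 and a log2 ratio of 1.14 (SE 0.24, adjusted p = 0.000418). All 4 replicates were above 1.7 for each of these, and ZNF282, ZNF324 and ZNF574 had log2 ratios of 1.41, 1.23 and 1.12.

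At the other end stood a pseudogene, as far below the average gene as any protein-coding member but 1. ZNF271P, which has no annotated protein, had ratios of 0.319, 0.202, 0.154 and 0.226 and a log2 ratio of -2.19 (SE 0.24, adjusted p = 1.21e-07). ZNF702P, also a pseudogene, had ratios of 0.172, 0.266, 0.324 and 0.458 and a log2 ratio of -1.78 (SE 0.36, adjusted p = 0.000312), while the log2 ratio of the other pseudogene, ZNF788P, was -0.18 (adjusted p = 0.698), with 96.9% of its exon bases inside another gene. Protein-coding members reached the same range: the log2 ratio of ZNF385D was -2.26 with ratios of 0.115, 0.217, 0.197 and 0.327, and those of the KRAB members ZNF85, ZNF585A and ZNF749 were -2.06, -2.02 and -1.86. In ZNF385D, as in ZNF271P and ZNF702P, every DMSO plate had a ratio below 0.5.

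**Figure D2:**
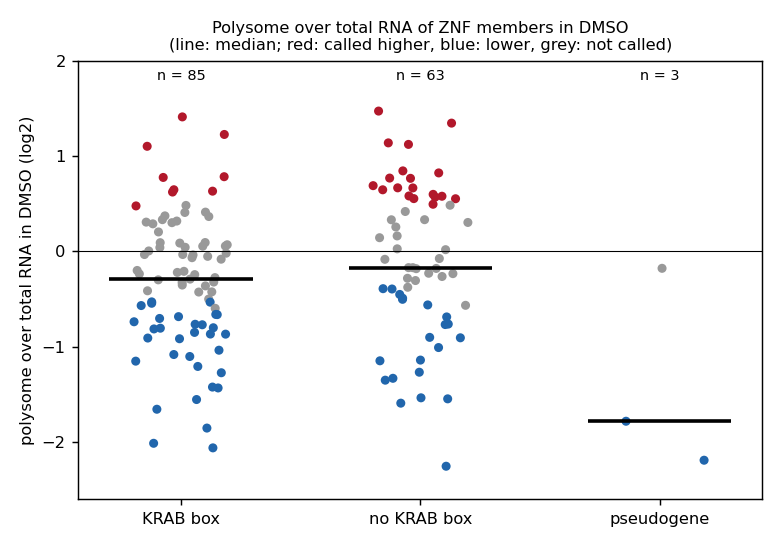
Log2 ratio of polysome to total RNA in DMSO for the tested members with a KRAB box (n = 85), without one (n = 63) and for pseudogenes (n = 3), with a point per member, the median as a line, red for members called higher and blue for those called lower. The medians are -0.29, -0.17 and -1.78, and the first 2 groups overlap over nearly their whole range.

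By structure, members with a KRAB box had 9 called higher and 32 lower of 85, with a median of -0.29, and members without one 19 and 21 of 63, with a median of -0.17. Members on chromosome 19 had 8 higher and 29 lower of 65. Of a list of 18 genes of the KRAB repression machinery, 17 were tested, 11 were higher on polysomes and 1 lower, with a median log2 ratio of 0.84. Over all tested genes 26.4% were higher and 29.6% lower. The machinery genes were not chosen by their DMSO total counts, and the difference between these groups was not tested. The DMSO log2 ratio had a Spearman correlation with coding length of 0.30 over 148 members and 0.605 over 10085 genes. With transcript GC content it was 0.32 over 151 members and 0.23 over 11571 genes. The part of these features in the differences between the groups was not tested.

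Cercosporamide raised the polysome-associated share of many members. Relative to DMSO, the ratio of polysome to total RNA rose for 42 of 151 members (27.8%) and fell for 10 (6.62%), where 15.8% of all genes tested rose and 12.6% fell. The median change of the members was 0.38 on the log2 scale against -0.0005 over all genes, and 102 of 151 had a positive change. Among all genes with 30 or more counts in each DMSO total library, 18.3% rose and 15.3% fell, with a median of -0.02. The median change of the members was positive in each of the replicates, at 0.25, 0.42, 0.35 and 0.12, and so was the shift of the unadjusted median over all tested genes, whose log2 ratio went from -0.0125 to 0.127, -0.0867 to 0.0342, -0.00566 to 0.182 and -0.00659 to 0.00235 between DMSO and cercosporamide in replicates 1 to 4. In these bulk lysates, an RNA that moved in part of the cells and one that moved a little in all of them cannot be told apart.

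Several measurements moved with this result. Member transcripts were poor in G and C, with a median of 41.9% against 47.5% over the tested genes, and 109 of 151 lay below the latter. The 42 members that rose had a median of 39.6% and the 10 that fell 50.1%. With each library's trend on GC content removed, 15 members rose and 14 fell, 9.93% and 9.27%, against 10.3% and 11.3% of all genes, and the median was 0.04. Of the 42 members, 13 were still called higher in that fit and 41 kept a positive change. Without replicate 2, 18 members rose and 6 fell, against 8.6% and 6.34% of all genes, and without the plate of the shallow library, a choice made after seeing the data, 35 of 156 rose and 12 fell, against 13.4% and 10.8% of all genes. Chosen by the mean over all libraries, 52 of 224 ZNF genes rose and 10 fell, with a median of 0.39.

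**Figure D3:**
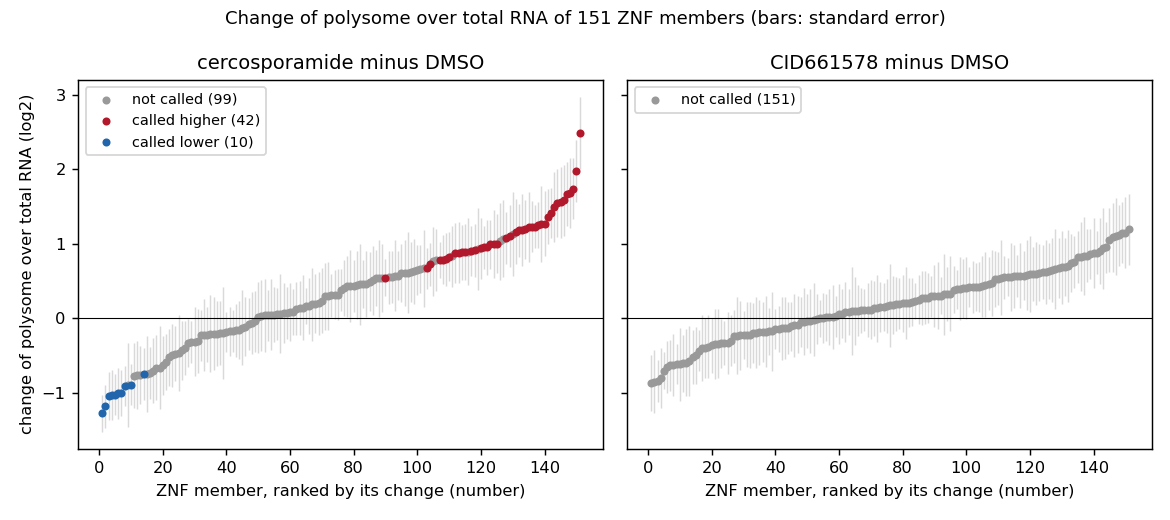
Change of the ratio of polysome to total RNA on the log2 scale for the 151 tested members, ranked by size, with cercosporamide on the left and CID661578 on the right, both minus the same DMSO plates, with bars for the standard error. With cercosporamide 42 members are called higher (red) and 10 lower (blue), and with CID661578 none is called.

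The largest rise was that of ZNF600, a KRAB member at chr19:52749942-52786807 with 18 fingers. Its polysome over total ratios were 0.382, 0.348, 0.359 and 0.398 in DMSO and 2.00, 2.24, 0.826 and 6.19 with cercosporamide, so the groups did not overlap. The last value came from the shallow library with 25 counts. The change was 2.49 (SE 0.49, adjusted p = 0.00146), and 2.18 (adjusted p = 0.00175) with the GC trends removed. In total RNA its level went from 6.85 ± 1.12 to 4.21 ± 3.30 CPM and in polysome RNA from 2.56 ± 0.518 to 8.67 ± 5.55 (n = 4 each). In this gene 16% of 50-base stretches occur in other transcripts.

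ZNF184, a KRAB member at chr6:27450743-27473118 with 19 fingers and no shared stretch, was next. Its ratios were 0.646, 0.451, 0.471 and 0.773 in DMSO and 4.30, 2.49, 1.33 and 1.81 with cercosporamide. All 4 treated plates were above all 4 controls, and the change was 1.98 (SE 0.42, adjusted p = 0.00249). Polysome RNA rose from 4.53 ± 1.39 to 11.2 ± 2.45 CPM (change 1.31, adjusted p = 0.00159), while total RNA stood at 7.67 ± 0.499 and 5.39 ± 2.56 CPM (change -0.55, adjusted p = 0.616).

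ZNF143, at chr11:9460319-9528524, has no KRAB box and activates genes of small nuclear RNAs and many other promoters. Its ratios were 1.14, 1.08, 0.913 and 0.596 in DMSO and 2.80, 2.6, 3.50 and 3.17 with cercosporamide, the tightest of the 3 treated groups. The change was 1.74 (SE 0.41, adjusted p = 0.00567). It had no shared 50-base stretch and no overlap with another gene.

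The next members in order were KRAB proteins of chromosome 19. ZNF701 changed by 1.68 (adjusted p = 0.016), ZNF845 by 1.67, ZNF566 by 1.58, ZNF799 by 1.56 and ZNF766 by 1.55. The DMSO ratios of ZNF701 were 1.64, 0.361, 0.396 and 0.542, and its first replicate overlapped the treated range of 1.36 to 2.72. Of the 42 members that rose, 23 at least doubled their ratio, and 18 lay on chromosome 19, as did 2 of the 10 that fell and 45 of the 99 others. Those called lower on polysomes in DMSO numbered 19 of the 42, 7 of the 10 and 29 of the 99, and the DMSO ratio is also the baseline of the change.

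The strongest fall was in the most abundant member. The ratios of ZNF593, at chr1:26169908-26170873, were 0.307, 0.473, 0.380 and 0.426 in DMSO and 0.105, 0.158, 0.211 and 0.199 with cercosporamide, with no overlap and 123 counts or more in every library. The change was -1.27 (SE 0.25, adjusted p = 0.0014). Total RNA went from 350 ± 74.2 to 557 ± 129 CPM and polysome RNA from 138 ± 39.9 to 91.6 ± 25.1 CPM, with an adjusted p of 0.242 for total RNA and 0.0177 for polysome RNA. All its exon bases lie within another annotated gene.

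ZNF511, at chr10:133308914-133313162, had ratios of 0.246, 0.482, 0.351 and 0.591 in DMSO and 0.152, 0.165, 0.219 and 0.170 with cercosporamide. The groups did not overlap, and the change was -1.18 (SE 0.29, adjusted p = 0.0077). ZNF346, which binds double-stranded RNA and lies at chr5:177022696-177081189, had ratios of 0.856, 0.981, 0.958 and 0.771 in DMSO and 0.6, 0.372, 0.442 and 0.357 with cercosporamide, and a change of -1.04 (SE 0.32, adjusted p = 0.0263). All treated plates were again below all controls. ZNF32, ZNF544, ZNF76, ZNF749 and ZNF655 fell by 1.03, 1.02, 1.00, 1.00 and 0.91 on the log2 scale. ZNF544 and ZNF749 were the 2 of these with a KRAB box, and ZNF76 is the close relative of ZNF143 that moved the other way.

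**Figure D4:**
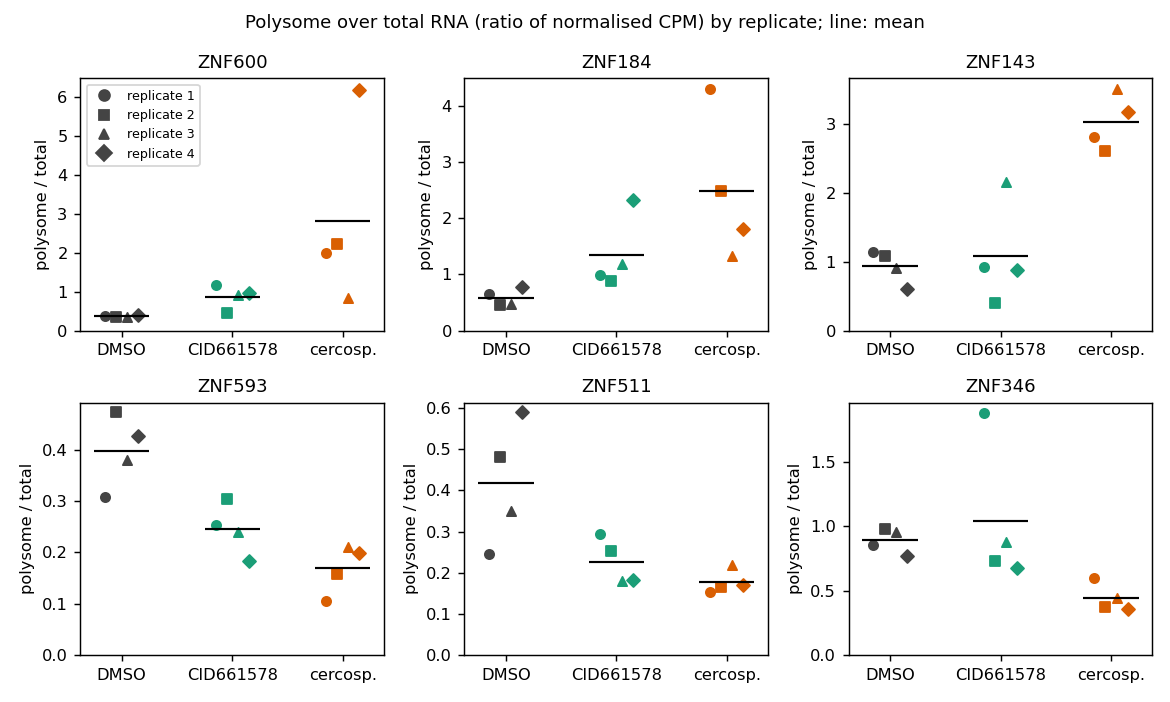
Ratio of polysome to total RNA of 3 members that rose with cercosporamide (top) and 3 that fell (bottom) on linear axes from 0, with a symbol per replicate and a line at the mean of each treatment (n = 4). Cercosporamide plates lie wholly above the DMSO plates for ZNF600, ZNF184 and ZNF143 and wholly below for ZNF593, ZNF511 and ZNF346.

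The changes were mostly larger in the polysome fraction, for members as for other genes. Among the 42 members that rose, polysome RNA changed more than total RNA in 37 and 36 were also called higher in polysome RNA by itself, and among the 10 that fell the numbers were 7 and 9. Polysome RNA changed more in 88.1% of the members that rose and 70.0% of those that fell, against 78.0% and 67.5% over all genes called. In total RNA no member was called with cercosporamide, where 0.29% of all genes were called higher and 0.0912% lower (edgeR's quasi-likelihood test at an adjusted p below 0.15). At an unadjusted p below 0.05, 8 members were higher and 8 lower, 5.30% each, against 6.61% and 4.67% of all genes. DESeq2 called 3 members higher and 3 lower, 1.99% each, against 2.48% and 0.912% of all genes. The member changes in total RNA ran from -1.10 to 0.67, with a median of -0.15. The DMSO total counts by which members were chosen are the baseline of this change. Over all genes with 30 or more counts in each DMSO total library the median was 0.004. For ZNF genes chosen by the mean over all libraries it was -0.16.

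In polysome RNA 47 members rose and 15 fell with cercosporamide, 31.1% and 9.93%, against 18.3% and 13.8% of all genes. Without the replicate block 27 rose and 8 fell, against 10.3% and 5.61% of all genes. Without replicate 3 the number that rose was 24, or 15.9%, against 13.1%. With GC trends removed 23 rose and 20 fell, 15.2% and 13.2%, against 14.0% and 11.7% of all genes. ZNF567, a KRAB member, had polysome levels of 8.21, 5.09, 4.57 and 7.08 CPM in DMSO and 16.2, 12.6, 16.8 and 18.5 with cercosporamide, and rose by 1.36 (SE 0.22, adjusted p = 0.000231). ZNF277, which binds the ribosomal protein RPS2, had polysome levels of 3.78, 1.40, 1.77 and 3.46 CPM in DMSO and 6.95, 4.81, 5.25 and 11.3 with cercosporamide, and rose by 1.45 (adjusted p = 0.00269). Neither gene's groups overlapped. ZNF706, ZNF672, ZNF32, ZNF592 and ZNF335 fell the most in polysome RNA, by 1.00, 0.98, 0.98, 0.96 and 0.82 on the log2 scale.

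The sequence around the start codon of the members at both ends of the list is shown because initiation factors act there. The window holds 12 bases before and 18 from the start codon on, in transcript order, and the start codon is in capitals. ZNF600, ZNF184, ZNF143 and ZNF701 rose the most and ZNF593, ZNF511, ZNF346 and ZNF32 fell the most with cercosporamide.
ZNF600: tcctaaagactcATGttatgtgaagaagca
ZNF184: tgagctcctgagATGgaagatctgtcctct
ZNF143: cggaggtagaagATGttgttagcccaaata
ZNF701: aaggagtcagggATGgctcttcttcagggt
ZNF593: ctgtttctggccATGggtcgctcccgccgg
ZNF511: gcgcccggggtgATGcagttgccccccgcg
ZNF346: tttgcggggaagATGgagtatcccgcgccg
ZNF32: gcaggagtggacATGtttggatttccaaca
Counted from the A of the start codon as base 1, 37 of the 42 members that rose had A or G at base -3, as had 9 of the 10 that fell and 73 of the 96 other members with a start codon in the annotation. G at base 4 was found in 19, 6 and 58 of these. The counts are a description, and no difference between them was tested.

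CID661578 gave no called change in the ratio of polysome to total RNA for any member, where 0.00829% of all genes rose and 0.199% fell (edgeR's quasi-likelihood test, adjusted p below 0.15 and beyond 1.2-fold). These are 1 and 24 of 12058 genes. With anota2seq at the same adjusted p and fold, the study reported mRNAs whose translational efficiency changed with both compounds. The fit here called few genes of any kind, so the lack of member calls does not show unchanged ratios. At an unadjusted p below 0.05, 14 members were higher and 4 lower, 9.27% and 2.65%, against 4.92% and 3.95% of all genes, and DESeq2 called none. The analysis of partial variance called 1 higher. Without replicate 1 the counts were 3 higher and 2 lower, 1.99% and 1.32%, against 0.798% and 2.01% of all genes. The median change was 0.17 against 0.03 over all genes, with 97 of 151 positive, and with the GC trends removed it was 0.01.

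The 5 members with the lowest unadjusted p are given as values. ZNF146, a protein made almost only of fingers, had ratios of 0.746, 0.550, 0.307 and 0.481 in DMSO and 0.729, 0.843, 1.22 and 0.943 with CID661578, a change of 0.88 (SE 0.29, adjusted p = 0.487). The groups overlapped in replicate 1. The changes of ZNF511 and ZNF593 were -0.84 and -0.70, both with an adjusted p of 0.489. By replicate, ZNF511 changed by 0.26, -0.92, -0.96 and -1.68. The ratios of ZNF593 with CID661578 were 0.254, 0.304, 0.239 and 0.184, all below its DMSO values of 0.307 to 0.473. ZNF468 and ZNF292 had changes of 1.15 and 0.95. By replicate these were -0.43, 2.91, 1.64 and 0.49 for ZNF468 and 0.58, 0.21, 1.75 and 1.24 for ZNF292.

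In polysome RNA by itself, CID661578 raised 15 members and lowered 4, 9.93% and 2.65%, against 6.16% and 3.96% of all genes. These calls rested on the replicate block: without it 1 member rose and none fell, against 0.274% and 0.299% of all genes. Without replicate 1, 3 or 4 the number that rose was 6, 3 or 9, which is 3.97%, 1.99% or 5.77%, against 2.43%, 2.09% or 2.72% of all genes. With GC trends removed 4 rose and 5 fell, 2.65% and 3.31%, against 1.67% and 1.11%. ZNF292, a very large protein, had polysome levels of 18.1, 18.8, 8.21 and 14.0 CPM in DMSO and 40.6, 32.1, 21.3 and 40.0 with CID661578, and rose by 1.2 (SE 0.23, adjusted p = 0.00597). ZNF567 rose by 1.08 and ZNF146 by 1.05, with adjusted p of 0.00751 and 0.0138. All 4 treated plates of ZNF292 were above all 4 controls. ZNF551 fell the most, by 1.05 on the log2 scale (adjusted p = 0.115). ZNF530 had polysome levels of 13.6, 8.87, 16.4 and 13.6 CPM in DMSO and 6.84, 4.28, 8.30 and 6.56 with CID661578, and fell by 1.02 (adjusted p = 0.0132).

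In total RNA no member was called with CID661578, where 0.315% of all genes were called higher and 0.133% lower. At an unadjusted p below 0.05, 2 members were higher and 10 lower, 1.32% and 6.62%, against 3.65% and 3.52% of all genes. DESeq2 called none higher and 2 lower, or 1.32%, against 0.722% and 0.514% of all genes. The median change was -0.06, and the members ranged from -1.45 to 0.54. The members were chosen by their counts in DMSO total RNA, which is the baseline of this change. Over all genes with 30 or more counts in each DMSO total library the median was -0.02. For ZNF genes chosen by the mean over all libraries it was -0.04. The unadjusted counts were not taken for these sets.

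The compounds were also set against each other, although they were used at different doses and share the DMSO plates, which cancel in this test. The change of the ratio with CID661578 was higher than with cercosporamide for 6 members and lower for 14, 3.97% and 9.27%, against 7.93% and 7.57% of all genes, and the median difference was -0.18. These counts were unsteady: without replicate 2 they were 3 and 0, without replicate 1 they were 2 and 4, without replicate 4 they were 8 and 6, and with GC trends removed 13 and 12. The shares of all genes in these fits were 1.82% and 1.4%, 2.25% and 2.55%, 7.18% and 4.96%, and 9.74% and 8.18%. The difference had a Spearman correlation with coding length of -0.20 over 148 members and -0.46 over 10085 genes. With GC content it was 0.15 over 151 members and 0.22 over 11571 genes. This was the only pair of compounds.

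ZNF655, at chr7:99558406-99576453, differed the most. Its ratios were 0.319, 0.408, 0.355 and 0.257 in DMSO, 0.588, 0.516, 0.411 and 0.451 with CID661578 and 0.240, 0.148, 0.167 and 0.168 with cercosporamide, and the 3 groups did not overlap. The difference between the compounds was 1.46 (SE 0.26, adjusted p = 0.00541). ZNF706, ZNF32 and ZNF346 followed with 1.28, 1.18 and 1.13. On the other side ZNF143 had a change of 0.06 with CID661578 and 1.74 with cercosporamide, a difference of -1.68 (SE 0.41, adjusted p = 0.0182), with CID661578 ratios of 0.919, 0.399, 2.15 and 0.875. The differences of ZNF507, ZNF600 and ZNF485 were -1.40, -1.29 and -1.28, with adjusted p of 0.0553, 0.111 and 0.143.

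Grouped by role, the members of a list of sequence-specific activators and corepressor partners, 14 of 18 listed, had 5 that rose and 1 that fell in the ratio with cercosporamide, with a median change of 0.61. Those that rose were ZNF143, ZNF281 with 0.99, ZNF644, a partner of the histone methyltransferases G9a and GLP, with 0.95, ZNF292 with 0.91 and ZNF24 with 0.90, and ZNF76 fell. ZNF217, an oncogene product and CoREST partner, had a change of 0.66 and an adjusted p of 0.16. None was called with CID661578, and their median was 0.02. Over all tested genes 15.8% rose and 12.6% fell with cercosporamide, and the list was not tested against these shares.

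A list of ZNF proteins of the ribosome, RNA, SUMO and spindle had 10 of 13 as members. Of these, 4 rose and 2 fell with cercosporamide, where 15.8% and 12.6% of all tested genes did. ZNF277 rose by 1.49, ZNF330, a nucleolar protein, by 1.41, ZNF638, a nuclear protein that silences unintegrated retroviral DNA, by 1.25 and ZNF622 by 0.78. The ratios of ZNF622 were 2.51, 1.55, 1.65 and 1.31 in DMSO and 3.21, 2.42, 2.72 and 3.50 with cercosporamide, with a change of 0.78 (SE 0.24, adjusted p = 0.0296), and the ranges overlapped only through DMSO replicate 1. ZNF593 and ZNF346 fell, so the 2 members linked to the large ribosomal subunit, ZNF593 and ZNF622, moved in opposite directions. ZNF207, which binds BUB3 at the spindle, and ZNF451, a SUMO ligase, had changes of 0.16 and 0.38 with adjusted p of 0.693 and 0.373.

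Of the 9 listed KRAB repressors, classical ones and those of retroelements and imprints, only ZNF263 and ZNF274 were members. Neither was called for either compound. In the KRAB repression machinery 4 of 17 tested genes rose with cercosporamide and none fell, where 15.8% and 12.6% of all tested genes did. Those that rose were HDAC2 with 1.31, the HUSH subunit TASOR with 1.05, SMARCAD1 with 0.99 and the HP1 protein CBX3 with 0.70. TRIM28, the protein that KRAB boxes bind, had a change of 0.39 (adjusted p = 0.429) and SETDB1 one of -0.10 (adjusted p = 0.887). None of the 17 was called with CID661578.

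By structure, members with a KRAB box had 26 that rose and 3 that fell of 85 with cercosporamide, with a median of 0.46, and members without one 16 and 7 of 63, with a median of 0.16. Their median GC contents were 41.7% and 43.5%. Members on chromosome 19 had 18 and 2 of 65, and those elsewhere 24 and 8 of 86. The ZBTB genes, another family of C2H2 proteins, had 18 tested by the same count rule, with 5 that rose, none that fell and a median of 0.40. Among all genes with 30 or more counts in each DMSO total library, 18.3% rose and 15.3% fell. None of these differences was tested.

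Over the 151 members, the change with cercosporamide had a Spearman correlation of -0.51 with transcript GC content, and over all 11571 tested genes with an annotated transcript it was -0.54. With CID661578 the values were -0.58 and -0.57. The points share the same libraries, and the correlations describe these genes only. Between 37% and 40% GC the median change with cercosporamide was 0.63 for 37 members and 0.67 for 1329 other genes, between 40% and 43% it was 0.81 for 34 and 0.47 for 1589, and above 52% it was -0.26 for 28 and -0.34 for 4116. The part of GC content in these values was not tested beyond the fit without its trends.

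**Figure D5:**
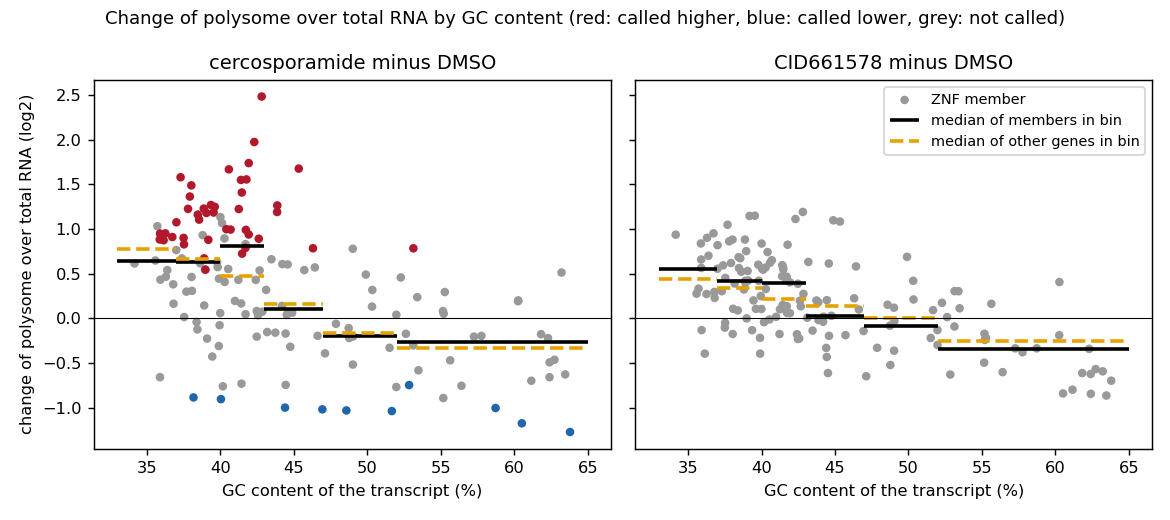
Change of the ratio of polysome to total RNA on the log2 scale against the GC content of the transcript in percent for the 151 tested members, with cercosporamide on the left and CID661578 on the right, red for members called higher and blue for those called lower. Solid lines are medians of members and dashed lines medians of the other tested genes in 6 bins of GC content. All lines end lower on the right than on the left, and the member line with cercosporamide rises to 0.81 between 40% and 43% before it falls.

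Calls also differed along the level of the members. In the 51 members with the lowest mean level, 3.07 to 7.06 CPM over all libraries, 12 rose and none fell with cercosporamide, with a median standard error of 0.47. In the 50 with the highest, 12.8 to 287 CPM, 19 rose and all 10 members that fell were found, with a median standard error of 0.33. Over all tested genes 15.8% rose and 12.6% fell. Their shares at these levels were not taken, so whether other genes differ by level in the same way was not tested.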

How the data were processed

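The counts deposited by the authors are whole numbers of reads per RefSeq gene, neither normalized nor filtered. Per the study's methods, Smart-seq2 libraries were read as 50-base pairs, rRNA reads were removed with BBDuk, the rest was aligned to hg38 with HISAT2 and counted with featureCounts at its default settings, without strand.

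Members and gene lists were chosen with earlier results of these data known. Genes with a 0 in any library were removed, as in the study. The rest were normalized by TMM and tested with edgeR 4.0.16 (quasi-likelihood, Benjamini-Hochberg) in R 4.3.3. The model held a term per plate, a term per replicate in the polysome fraction, and the change of polysome over total RNA with each compound. Single fractions were fitted on treatment and replicate. Calls needed an adjusted p below 0.15 and, for ratios, a change over 1.2-fold. The replicate block follows the study, which used replicate as batch, and deviations of same-numbered libraries correlated above 0.1 in 13 of 16 comparisons. The exceptions were cercosporamide polysome replicates 1 and 4, at -0.025 and 0.059, and CID661578 total replicate 1, at 0.086. The study's anota2seq was not run. The fit was tested on simulated counts with known changes.

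Transcript length, GC content, shared 50-base stretches and coding sequences came from GENCODE v44 on GRCh38, which is hg38. Proteins were translated from those coding sequences in place of the planned RefSeq proteins. KRAB boxes were called with a 34-residue profile, and the finger pattern misses fingers of other spacing. As an alternative, the trend of each library on GC content was removed. Other alternatives were DESeq2 1.42.0, its size factors, 2 other filters, other member rules, fits with DMSO and 1 compound, analysis of partial variance, and each replicate left out. Named members are, in each comparison, the highest and lowest called with the same sign in all replicates, plus members of the lists and those at the limits of the rule. For the ratio in DMSO and between compounds the sign in single replicates was not required. Depth limits precision for all members, and p-values cover the spread between these plates.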

Additional observations from a re-analysis of the deposited data

Results flagged for a closer look

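Among 66 groups of 4 replicates that were checked, 5 held a value set apart from the other 3 by more than Dixon's critical value for 4 samples, and chance gives about 1 in 20. In DMSO total RNA the members took 0.277% of the reads in replicate 3 and 0.240% to 0.246% in the others. In DMSO polysome RNA they took 0.227% in replicate 2 and 0.242% to 0.244% in the others. The ratio of ZNF701 in DMSO was 1.64 in replicate 1 and 0.361 to 0.542 in the others. The ratio of ZNF346 with CID661578 was 1.88 in replicate 1 and 0.672 to 0.879 in the others. The ratio of ZNF76 with cercosporamide was 0.193 in replicate 4, from 7 counts in the shallow polysome library, and 0.475 to 0.532 in the others.

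The effects of the compounds on the ratio of polysome to total RNA differed by the test of the difference itself (edgeR's quasi-likelihood test). The change with CID661578 exceeded that with cercosporamide by 1.46 for ZNF655, 1.28 for ZNF706, 1.18 for ZNF32 and 1.13 for ZNF346, with adjusted p of 0.00541, 0.0106, 0.0368 and 0.0364. The differences were -1.68 for ZNF143, -1.40 for ZNF507, -1.29 for ZNF600 and -1.28 for ZNF485, with adjusted p of 0.0182, 0.0553, 0.111 and 0.143. ZNF655, ZNF706, ZNF32, ZNF346, ZNF143 and ZNF507 showed their direction in 4 of 4 replicates and the other 2 in 3 of 4.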

How the results depend on the processing

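Of 689 values for named members under the alternatives, 631 had the same call, or lack of one, as in the main fit. A call was lost in 55 and gained in 3, and 0 changed sign. Members named for the ratio with CID661578 had no call in the main fit. The others were named for large calls in these same data, so the counts do not describe a typical member. Medians over all members did change sign: for polysome RNA with CID661578 from 0.05 to -0.08 with GC trends removed and to -0.03 without replicate 3, for total RNA with CID661578 from -0.06 to 0.01 without replicate 2, and for total RNA with cercosporamide from -0.15 to 0.03 among members with 100 or more counts. For the ratio with cercosporamide, 42 members rose. The number was 25 without a filter on low counts, 15 with GC trends removed and 21 at an adjusted p under 0.05. Among the 47 members with 100 or more counts it was 17. The shares that rose in the main fit, without a filter and with GC trends removed were 27.8%, 16% and 9.93% of members. Of all genes, 15.8%, 4.56% and 10.3% rose in these fits. Leaving out a replicate gave 18 to 30 higher and 6 to 15 lower. These are 11.9% to 19.9% and 3.97% to 9.93%, against 8.6% to 13.6% and 6.34% to 13.8% of all genes. Without the plate of the shallow library, a choice made after seeing the data, 35 of 156 were higher and 12 lower. In that fit 13.4% and 10.8% of all genes were. With CID661578 the analysis of partial variance called 1 higher, where 0.124% of all genes were. There, leaving out a replicate gave 0 to 3 higher and 0 to 2 lower, against 0% to 0.798% and 0.0987% to 2.01% of all genes. Between the compounds, 13 members were higher with GC trends removed, 8.61% against 9.74% of all genes. The number lower was 9 with DESeq2 size factors, 8 with edgeR's own filter and 6 without a filter. These are 5.96%, 5.13% and 3.85%, against 5.89%, 4.92% and 1.77% of all genes. The number lower was 2 at an adjusted p under 0.05 and 5 among members with 100 or more counts. Leaving out a replicate gave 2 to 8 higher and 0 to 12 lower, against 1.82% to 7.18% and 1.4% to 7.01% of all genes. In DMSO, 16 were higher and 36 lower at an adjusted p under 0.05, 7 and 26 among members with 100 or more counts, and 49 were higher with members chosen by mean count. For an adjusted p under 0.05 and for 100 or more counts, here and above, no share of all genes is given. Those counts are therefore not set against other genes. Leaving out a replicate gave 36 to 44 lower, which is 23.8% to 29.1%, against 24% to 26.1% of all genes.

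Without the replicate block the ratio with cercosporamide had 38 higher and 9 lower, 25.2% and 5.96%, against 14.4% and 10.9% of all genes. The compounds then differed in 8 lower, 5.3% against 5.6%. Polysome RNA had 27 higher and 8 lower with cercosporamide, and 1 and 0 with CID661578. In total RNA with cercosporamide, DESeq2 called 3 higher and 3 lower, and the fit without a filter 1 lower. The fit with GC trends removed called 7 higher and 4 lower, 4.64% and 2.65%, against 4.88% and 1.53% of all genes. With CID661578, DESeq2, no filter and GC removal gave 2, 1 and 3 lower. These are 1.32%, 0.641% and 1.99%, against 0.514%, 0.242% and 0.73% of all genes. Leaving out a replicate gave 0 to 1 lower. In polysome RNA with cercosporamide, the number higher was 26 without a filter, 23 with GC trends removed and 24 to 37 with a replicate left out. These are 16.7%, 15.2% and 15.9% to 24.5%, against 5.04%, 14% and 12.2% to 15.6% of all genes. At an adjusted p under 0.05 it was 28, and among members with 100 or more counts 20. DESeq2 and its size factors each called 23 lower, 15.2%, against 18.2% and 17.8% of all genes. With CID661578, GC removal gave 4 higher, an adjusted p under 0.05 gave 5 higher and 1 lower, and 100 or more counts gave 6 and 1. For polysome RNA too, with either compound, the counts at these last 2 settings are not set against a share of all genes. DESeq2 gave 7 lower, members by mean count 7 lower and the fit without the plate of the shallow library 8 lower. These are 4.64%, 3.12% and 5.13%, against 5.58%, 3.96% and 5.62% of all genes. Leaving out a replicate gave 3 to 12 higher and 1 to 6 lower, against 2.09% to 4.92% and 1.1% to 3.69% of all genes. The cause of these shifts was not tested. In the shallow library few reads stand behind each member.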
